A study of Danio rerio with 9 samples.

Results

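The proepicardium of zebrafish larvae was compared with the heart tube by RNA sequencing of 4 proepicardium and 3 heart tube libraries, which are 7 of the 9 libraries of the series. The series' own description counts 3 proepicardium samples, while the labels and the count table hold 4, and all 4 were used. They were taken by their labels, as the libraries named for these tissues in a table of read counts per gene. The remaining 2 libraries were from the dorsal pericardium and are given beside the results where a value bears on them. All animals were Danio rerio of strain AB at 60 hours post fertilisation and carried epi:eGFP, a green reporter under a regulatory element called epi, together with myl7:mRFP, a red reporter under the promoter of a heart muscle myosin light chain gene. Each library was made from at least 10 organs pooled after dissection with needles, so a library is a mixture of all cells that came with the organ, and no animal was treated. The comparison asks which functions, other than contraction and the known epicardial marker genes, are transcribed more on either side.

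The proepicardium is a transient cluster of cells on the pericardial wall. Its cells cross to the heart, cover the myocardium as the epicardium and later give rise to connective tissue and mural cells. The heart tube at this age consists of beating myocardium around an endocardial lining, with a hyaluronan-rich matrix, the cardiac jelly, between them, and heart muscle is known for its dense mitochondria and its use of fatty acids and lactate as fuels.

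Gene counts per library ranged from 8882853 to 19397355, and levels are given in CPM, counts scaled to a common library total after correction for composition with TMM factors, in the order of libraries 1 to 4 of the proepicardium and 1 to 3 of the heart tube. A count of 0 allows up to 3 counts, which was 0.150 to 0.331 CPM in the different libraries, and such limits cover counting error only because amplified cDNA was counted without molecular identifiers. Of 32520 genes, 17003 passed a filter on low counts and were tested with edgeR's quasi-likelihood test, and genes with a Benjamini-Hochberg adjusted p under 0.05 over those 17003 were called. Differences are log2 values of proepicardium minus heart tube. The value after ± is the size of the difference divided by the square root of the test's F statistic. It is an approximate standard error and was not estimated separately. Between the tissues 5007 genes were called, which is 29.4% of those tested. Of these, 2853 (16.8%) were higher in the proepicardium and 2154 (12.7%) were higher in the heart tube, and the median difference over all genes tested was 0.17. All proepicardium libraries exceeded all heart tube libraries for 19.8% of the genes tested, and the reverse held for 16%. In a test against a difference of 2-fold, 1838 and 1177 genes were called. The gene lists below were chosen with earlier results of these data known. A list share above the share over all genes may in part reflect that choice and is not independent evidence. Genes named by rule for a list had to show no overlap between the tissues, so their lack of overlap carries no added weight. The labels do not say that libraries of a tissue came from separate clutches, so p-values measure the spread between these libraries, which may be technical.

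The labels were checked against marker genes. In the row of the count table named mCherry, a red fluorescent protein, proepicardium libraries held 0 or 1 counts and heart tube libraries 3059 to 4042. No row was named mRFP, the red reporter of the labels. The rows named Egfp and mEGFP held 0 counts in every library, although the animals carried a reporter with eGFP. A further eGFP row, with added ends, held 5, 0, 6 and 1 counts in proepicardium libraries and 0 in every other library. All 7 markers of heart muscle were tested and 6 were higher in the heart tube, where they took 4.56 to 5.58% of gene counts against 0.00977 to 0.0384% in the proepicardium. Of the 4 proepicardium markers, WT1 did not pass the filter, and wt1b was called higher in the proepicardium, at 1.01, 0.995, 2.58 and 0.772 CPM in proepicardium libraries and 0, 0.0691 and 0 in heart tube libraries. TCF21 was not called, at 3.21, 2.49, 7.48 and 5.52 CPM in proepicardium libraries and 4.47, 1.17 and 0.652 in heart tube libraries, and neither was TBX18. TBX18 was at 0.789, 0.663, 2.02 and 1.54 CPM in proepicardium libraries and 0.663, 2.07 and 1.22 in heart tube libraries. These marker genes were thus at a few CPM in the libraries named for the proepicardium, and TCF21 and TBX18 overlapped the heart tube.

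Markers of other cells were present in the proepicardium libraries. The 10 markers of epidermis took 4.85%, 5.28%, 1.31% and 3.09% of gene counts in proepicardium libraries and 0.642%, 0.0249% and 0.0284% in heart tube libraries, and 8 of the 10 were higher in the proepicardium, all but krt4 and krt1-19e (5 of the 10 without proepicardium libraries 1 and 2). Heart tube library 1 held more of them than the other heart tube libraries, and proepicardium library 3 held the least among the proepicardium libraries. None of the 10 was at 0 in any proepicardium library, while cldna was at 0 in all heart tube libraries. The 11 genes with a mitochondrial symbol, which are not all genes that mitochondria encode, took 7.96% and 9.70% of gene counts in proepicardium libraries 1 and 2. In libraries 3 and 4 they took 21.0% and 20.8%. Each count below was therefore also made without libraries 1 and 2 and without libraries 3 and 4 of the proepicardium, choices added after these values were seen, and is given where it moved by more than 1.5 times. Between proepicardium and pericardium, edgeR called 0 genes (0%), while 650 genes were higher and 183 lower in the proepicardium at an unadjusted p under 0.05, DESeq2 called 99 and 2, and limma-voom called 7 and 0. Of the tested markers of other cells, 4 of 6 for cartilage (2 without heart tube library 3), 2 of 8 for neurons, 2 of 3 for liver, 1 of 6 for pigment cells, 1 of 7 for erythrocytes, 1 of 2 for proliferating cells and the 1 for neutrophils were higher in the proepicardium. The 1 for erythrocytes was a copy of SLC4A1 (ENSDARG00000024560) that is also on the ionocyte list. The other erythrocyte markers had log2 differences of -0.80 to -1.98. The 2 for neurons were gap43 and a copy of STMN1 (ENSDARG00000004169). ELAVL3 and ELAVL4 were not called, with log2 differences of -1.02 and -0.64. Those for endothelium were higher in the heart tube in 4 of 6 (2 without proepicardium libraries 1 and 2), those for skeletal muscle in 3 of 7, for neurons in 1 of 8 and for erythrocytes in 1 of 7, and neither of the 2 tested for macrophages was called. Among all genes tested, the share called on the proepicardium side was 16.8%, and the share on the heart tube side was 12.7%. Counts of 1 of 6, 1 of 7 or 1 of 8 were close to these shares, so they do not by themselves mark a cell type. Lists with 1 to 3 tested markers are too short for such a comparison. The small counts for these other cells also moved when libraries were left out. Without heart tube library 1, 4 skeletal muscle markers were called higher in the proepicardium against 0 with all libraries. The counts for liver, pigment cells, neurons, erythrocytes and proliferating cells lay between 0 and 2 whichever library was left out, with exceptions of 5 pigment cell markers higher in the proepicardium without heart tube library 3 and 5 erythrocyte markers higher in the heart tube without proepicardium libraries 3 and 4 together.

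**Figure D1:**
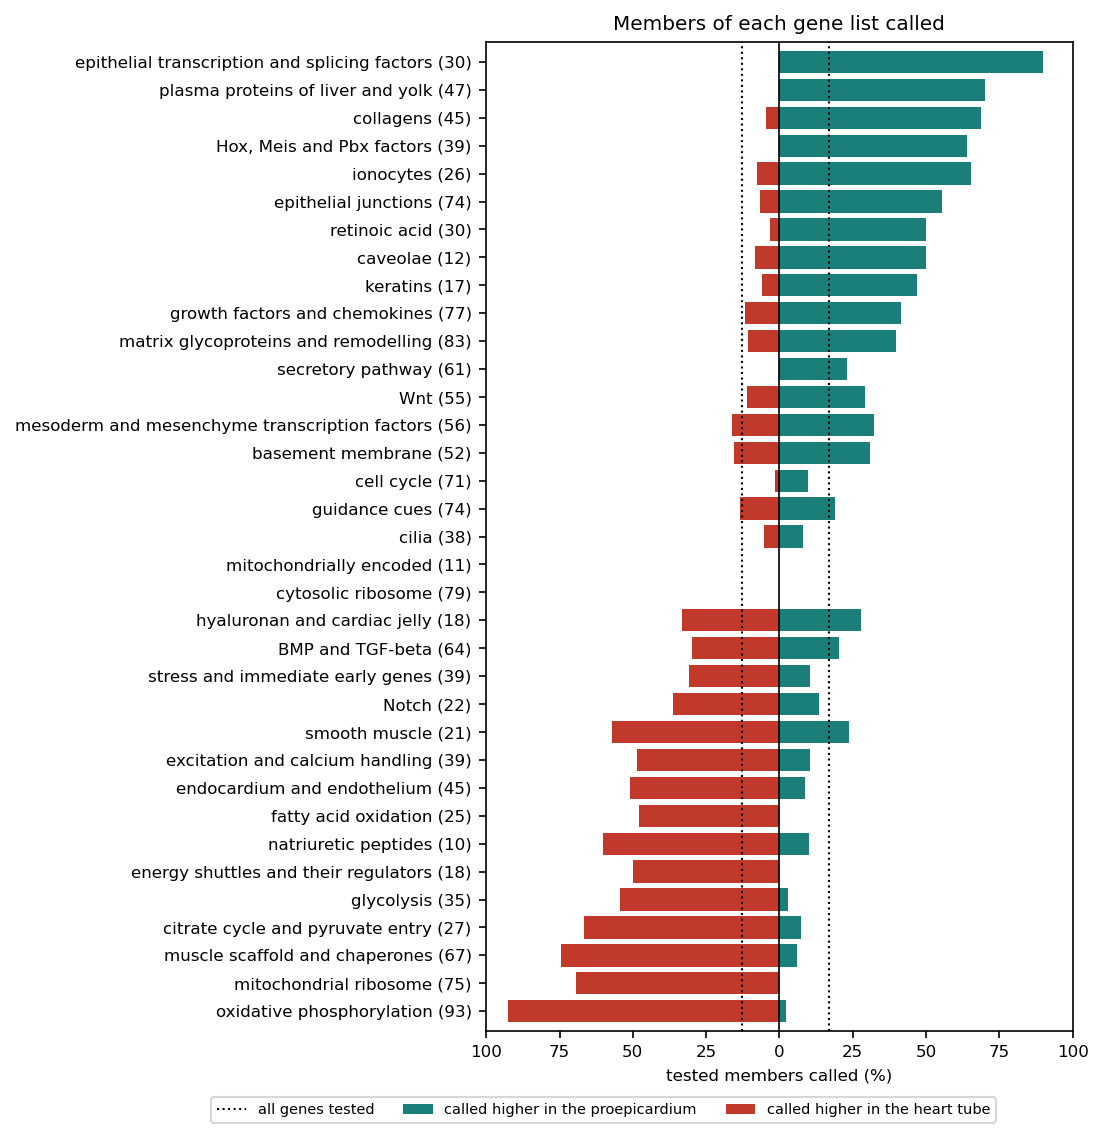
Share of the tested members of 35 gene lists that were called higher in the proepicardium (right) or higher in the heart tube (left), in percent, with the number of tested members in brackets and dotted lines at the shares over all 17003 genes tested (16.8% and 12.7%). Oxidative phosphorylation (86 of 93) and epithelial transcription and splicing factors (27 of 30) stand at the ends of the plot, and the cytosolic ribosome and mitochondrially encoded genes have no called member. The lists were chosen with earlier results of these data known.

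Enzymes that break down glucose were mostly higher in the heart tube. Of 39 glycolysis genes 35 were tested, 19 were higher in the heart tube and 1 in the proepicardium, and the median difference was -1.69 against 0.17 over all genes. LDHA, the muscle-type subunit of lactate dehydrogenase, was measured at 40.7, 29.4, 31.9 and 31.8 CPM in proepicardium libraries and 837, 774 and 876 in heart tube libraries. All heart tube libraries lay above all proepicardium libraries, with little spread on either side (log2 difference -4.63 ± 0.28, adjusted p = 6.21e-06). For GAPDH, the enzyme that feeds glycolysis into its energy-yielding steps, the values were 179, 84.1, 406 and 84.0 CPM in proepicardium libraries and 15161, 12815 and 23988 in heart tube libraries. The groups did not overlap, and proepicardium library 3 was the highest of its group (log2 difference -6.52 ± 0.62, adjusted p = 4.15e-05). GAPDHS, a second gene for this enzyme, was not called (log2 difference 0.79 ± 0.41, adjusted p = 0.173). It was at 463, 279, 176 and 225 CPM in proepicardium libraries and 83.0, 203 and 209 in heart tube libraries. PFKM (ENSDARG00000060797), the muscle form of phosphofructokinase, was measured at 0.169, 1.33, 0.797 and 0.331 CPM in proepicardium libraries and 25.7, 30.2 and 30.6 in heart tube libraries (log2 difference -5.45 ± 0.62, adjusted p = 9.61e-05). SLC16A3 (ENSDARG00000045051), a carrier that exports lactate, was measured at 0.169, 0.0829, 0.920 and 0.331 CPM in proepicardium libraries and 31.3, 15.13 and 8.88 in heart tube libraries (log2 difference -5.55 ± 0.72, adjusted p = 0.000242). Both were at 1.33 CPM or less in the proepicardium and present in every heart tube library. In the other direction HK2, the hexokinase that starts glycolysis in many growing cells, stood at 13.9, 26.9, 6.56 and 14.8 CPM in proepicardium libraries and 2.26, 2.28 and 1.47 in heart tube libraries, so that every proepicardium library was higher (log2 difference 2.94 ± 0.52, adjusted p = 0.00158). The count of genes higher in the proepicardium was 2 without heart tube library 2 or proepicardium library 4 and 3 without heart tube library 1, proepicardium library 3 or proepicardium libraries 3 and 4 together. The list took 0.156%, 0.137%, 0.151% and 0.113% of gene counts in proepicardium libraries and 1.84%, 1.79% and 2.50% in heart tube libraries. The log2 ratio of the mean shares, proepicardium over heart tube, was -3.88, and it was -1.82 with the 17 genes that took over 1% of a library left out.

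The nuclear genes of the respiratory chain and ATP synthase lay on the heart tube side with few exceptions. Of 100 nuclear genes on the list 93 were tested, and 86 were higher in the heart tube, with a median difference of -1.72. By complex, the counts were 37 of 38 for complex I, which takes electrons from NADH, 4 of 4 for complex II, 10 of 10 for complex III, 15 of 20 for complex IV, cytochrome c oxidase, and 19 of 20 for complex V, the ATP synthase. ATP5F1B, a catalytic subunit of ATP synthase, stood at 287, 249, 252 and 217 CPM in proepicardium libraries and 907, 1278 and 993 in heart tube libraries. Each heart tube library exceeded each proepicardium library (log2 difference -2.08 ± 0.27, adjusted p = 0.000216). UQCRC1, a core subunit of complex III, had 116, 81.9, 98.2 and 82.3 CPM in proepicardium libraries and 289, 338 and 347 in heart tube libraries, again with no overlap (log2 difference -1.78 ± 0.26, adjusted p = 0.00051). As these are whole organs, fewer cells of a type and less RNA per cell cannot be told apart in this or any later comparison. In complex IV, cox7a1, known in mammals as the heart and skeletal muscle form of its subunit, was at 0.113, 0.580, 1.53 and 0.662 CPM in proepicardium libraries and 49.9, 25.8 and 28.9 in heart tube libraries (log2 difference -5.57 ± 0.63, adjusted p = 9.61e-05). The muscle form was thus at 1.53 CPM or less in the proepicardium. COX7A2, in mammals the form found in most tissues, had 2 copies called in opposite directions. The copy with more counts (ENSDARG00000053217) was at 263, 158, 173 and 140.1 CPM in proepicardium libraries and 658, 564 and 478 in heart tube libraries, higher in the heart tube like the muscle form (log2 difference -1.63 ± 0.31, adjusted p = 0.00226). The other copy (ENSDARG00000110700) was at 48.0, 48.2, 72.0 and 42.8 CPM in proepicardium libraries and 17.6, 19.96 and 18.2 in heart tube libraries, higher in each proepicardium library than in any heart tube library (log2 difference 1.51 ± 0.28, adjusted p = 0.00229). The latter was not called under 1 of 20 alternatives, in the test against a 2-fold change (adjusted p 0.0648). COX4I2, an alternative form of subunit 4, was also higher in the proepicardium, at 36.0, 34.4, 22.9 and 19.0 CPM in proepicardium libraries and 8.06, 4.21 and 6.76 in heart tube libraries (log2 difference 2.14 ± 0.40, adjusted p = 0.00213), with 85.6 and 38.6 CPM in the pericardium. Of the complexes, complex IV alone had calls in both directions, and both of its genes higher in the proepicardium encode alternative forms of a subunit.

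**Figure D2:**
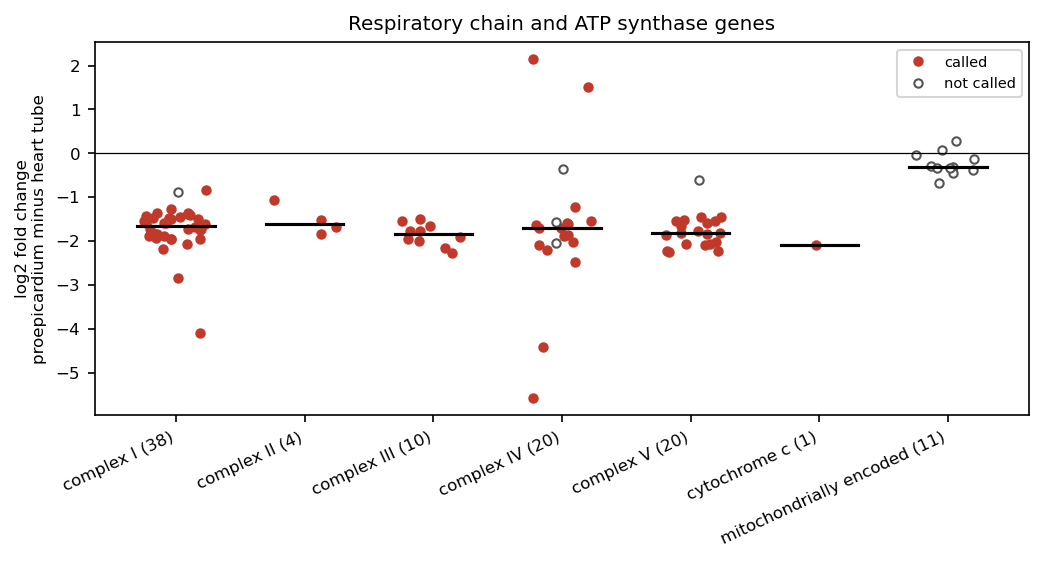
Log2 difference of proepicardium minus heart tube for each tested gene of the respiratory chain and ATP synthase, by complex with the number of genes in brackets, and for the 11 genes listed as encoded in mitochondria. Filled points are called genes, open points are not called, and bars are medians. The nuclear complexes lie near -1.7, with COX4I2 and 1 of 2 copies of COX7A2 above 0, and the mitochondrially encoded genes lie near 0.

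The mitochondrially encoded genes on the list supply core subunits of the same complexes, and none of them was called. edgeR called 0 of the 11 in either direction, 0 had an unadjusted p under 0.05, DESeq2 and limma-voom called 0, and the median difference was -0.31. Without proepicardium libraries 3 and 4, which had the highest mitochondrial shares of that tissue, 5 of the 11 were called higher in the heart tube. Of 75 genes for the mitochondrial ribosome, all of them tested, 52 were higher in the heart tube, at a median of -1.05. MRPL28, of its large subunit, was measured at 39.1, 24.3, 33.9 and 23.5 CPM in proepicardium libraries and 94.9, 113 and 129 in heart tube libraries, with no overlap (log2 difference -1.90 ± 0.29, adjusted p = 0.0006). This count depended on the libraries, being 34 without heart tube library 3 or proepicardium libraries 1 and 2 together, and 6 in the test against 2-fold. Most of its genes were thus called, and few of them in the test against 2-fold.

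Most calls among genes for fuel use in mitochondria were on the heart tube side. Of 27 tested genes of the citrate cycle and pyruvate entry, 18 were higher in the heart tube and 2 in the proepicardium, with a median of -1.43. MDH2, which makes oxaloacetate in the last step of the cycle, was at 221, 111, 164 and 125 CPM in proepicardium libraries and 952, 894 and 1277 in heart tube libraries. Every heart tube library was above every proepicardium library (log2 difference -2.74 ± 0.32, adjusted p = 0.000104). IDH2, the NADP-dependent mitochondrial isocitrate dehydrogenase, was at 97.7, 130.2, 150.2 and 107 CPM in proepicardium libraries and 574, 576 and 539.6 in heart tube libraries (log2 difference -2.22 ± 0.28, adjusted p = 0.000169). Kinases that block entry of pyruvate into the cycle were called on both sides. A copy of PDK2 (ENSDARG00000059054) was at 27.8, 32.2, 7.67 and 13.7 CPM in proepicardium libraries and 1.82, 3.94 and 3.01 in heart tube libraries. All proepicardium libraries lay above the heart tube, with libraries 1 and 2 highest (log2 difference 2.80 ± 0.54, adjusted p = 0.00261). This copy was at 46.9 and 24.6 CPM in the pericardium. The other copy of PDK2 (ENSDARG00000020876) was higher in the heart tube, at 43.0, 64.7, 29.9 and 19.2 CPM in proepicardium libraries and 99.0, 88.5 and 97.2 in heart tube libraries (log2 difference -1.27 ± 0.42, adjusted p = 0.0398), but was not called under 8 of 20 alternatives, without heart tube library 1, without heart tube library 2, without heart tube library 3, without proepicardium library 1, without proepicardium library 3, without proepicardium library 4, without proepicardium libraries 3 and 4 together and in the test against a 2-fold change (adjusted p 0.0574 to 0.32). PDK4 was also higher in the heart tube, at 7.04, 7.54, 7.36 and 5.63 CPM in proepicardium libraries and 31.3, 19.0 and 15.7 in heart tube libraries (log2 difference -1.67 ± 0.34, adjusted p = 0.00358), and was not called under 1 of 20 alternatives, in the test against a 2-fold change (adjusted p 0.053). IDH3G, a subunit of the NAD-dependent isocitrate dehydrogenase, was also higher in the proepicardium, at 366, 411, 151 and 109 CPM in proepicardium libraries and 62.9, 59.9 and 75.5 in heart tube libraries (log2 difference 1.97 ± 0.46, adjusted p = 0.00762), with 410 and 322 CPM in the pericardium. Of 25 tested genes of fatty acid oxidation, 12 were higher in the heart tube and 0 in the proepicardium (edgeR; 0 at an unadjusted p under 0.05, by DESeq2 and by limma-voom), and 9 of these 12 were enzymes of beta oxidation itself. The entry enzyme cpt1ab, a carnitine palmitoyltransferase, had 30.8, 58.6, 21.5 and 18.2 CPM in proepicardium libraries and 119.9, 132 and 142 in heart tube libraries. Its groups did not overlap, and proepicardium library 2 came closest to the heart tube (log2 difference -2.02 ± 0.38, adjusted p = 0.0023). The test against 2-fold left 11 citrate cycle and 4 fatty acid oxidation genes.

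Energy transfer and its regulators followed. Of 26 genes 18 were tested, and 9 were higher in the heart tube, with a median of -1.36. Myoglobin (mb), which stores oxygen in muscle, was at 0.394, 0.497, 1.29 and 0.662 CPM in proepicardium libraries and 145, 73.3 and 23.6 in heart tube libraries (log2 difference -6.80 ± 0.66, adjusted p = 4.89e-05). The muscle creatine kinase gene ckma was at 41.6, 47.3, 190.2 and 94.8 CPM in proepicardium libraries and 1127, 1143 and 899 in heart tube libraries (log2 difference -3.50 ± 0.49, adjusted p = 0.000371). Myoglobin was at 1.29 CPM or less in the proepicardium, while ckma was present in every proepicardium library and highest in library 3. The gene perm1b, whose mammalian counterpart promotes mitochondrial gene expression in muscle, had 6.36, 9.12, 11.4 and 9.27 CPM in proepicardium libraries and 119, 85.2 and 87.0 in heart tube libraries (log2 difference -3.42 ± 0.30, adjusted p = 2.05e-05).

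Natriuretic peptide genes were far higher in the heart tube. These peptides are hormones that heart muscle releases and that lower blood pressure in mammals. All 3 tested ligands were higher in the heart tube. nppa was measured at 10.8, 13.2, 26.8 and 15.3 CPM in proepicardium libraries and 7205, 11151 and 12446 in heart tube libraries (log2 difference -9.28 ± 0.62, adjusted p = 7.27e-06). nppb was measured at 11.1, 5.47, 12.1 and 6.40 CPM in proepicardium libraries and 7822, 12554 and 8986 in heart tube libraries (log2 difference -10.12 ± 0.68, adjusted p = 7.27e-06). No library of the proepicardium came near the heart tube in either gene. The third, nppal, was at 0.169, 0, 0 and 0.110 CPM in proepicardium libraries and 257, 305 and 273 in heart tube libraries, with 4 counts in all over the proepicardium libraries (log2 difference -11.76 ± 0.65, adjusted p = 6.21e-06). Proepicardium library 3 held the most nppa of its group, and nppa was at 13.6 and 3.39 CPM in the pericardium. Among receptors, NPR3, which clears the peptides, was at 1.92, 3.48, 2.76 and 0.331 CPM in proepicardium libraries and 30.4, 28.04 and 27.6 in heart tube libraries (log2 difference -3.73 ± 0.59, adjusted p = 0.000763). npr2, a receptor with guanylate cyclase activity, was at 2.20, 6.30, 7.24 and 3.31 CPM in proepicardium libraries and 15.4, 20.7 and 18.7 in heart tube libraries (log2 difference -1.94 ± 0.42, adjusted p = 0.00531). Of the 4 tested receptors these 2 were called. Of the proteases that activate the hormones, FURIN (ENSDARG00000062909) was higher in the proepicardium, at 235, 279, 139 and 122 CPM in proepicardium libraries and 60.0, 63.0 and 56.9 in heart tube libraries (log2 difference 1.69 ± 0.34, adjusted p = 0.0035), and is known to process many other proteins. This FURIN copy was at 247 and 244 CPM in the pericardium. CORIN, another of these proteases, was called higher in the heart tube, with overlapping groups (log2 difference -3.41, adjusted p = 0.0363). The other FURIN copy (ENSDARG00000070971) was not called (log2 difference -1.22, adjusted p = 0.222). Every heart tube library exceeded every proepicardium library for that copy. Together the list took 0.0264%, 0.0331%, 0.0204% and 0.0154% of gene counts in proepicardium libraries and 1.44%, 2.53% and 1.92% in heart tube libraries. Most of the proepicardium share came from FURIN (ENSDARG00000062909) and not from the peptide genes.

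Of 39 tested genes of excitation and calcium handling, 19 were higher in the heart tube, 4 were higher in the proepicardium and 16 were not called. Of 21 tested genes of the calcium store 12 were higher in the heart tube and 2 in the proepicardium, of 13 channels 6 and 1, and of 5 gap junction genes 1 and 1. Phospholamban (pln1), the inhibitor of the calcium pump, was at 7.998, 6.88, 17.7 and 5.30 CPM in proepicardium libraries and 2492, 1745 and 2342 in heart tube libraries (log2 difference -7.85 ± 0.52, adjusted p = 7.27e-06). The pump itself, atp2a2a, which was not on the list but was among the 10 genes with the smallest p in this direction, was at 6.53, 8.87, 13.2 and 8.39 CPM in proepicardium libraries and 474, 573 and 542 in heart tube libraries (log2 difference -5.84 ± 0.34, adjusted p = 5.83e-06). Neither gene overlapped between the tissues. SLC8A1 (ENSDARG00000013422), the sodium-calcium exchanger, had 0.732, 0.746, 3.13 and 0.662 CPM in proepicardium libraries and 121, 222 and 129 in heart tube libraries (log2 difference -6.86 ± 0.59, adjusted p = 2.05e-05). RYR2, the calcium release channel of the heart, had 1.41, 2.07, 4.23 and 4.08 CPM in proepicardium libraries and 305, 238 and 217 in heart tube libraries (log2 difference -6.43 ± 0.57, adjusted p = 2.15e-05). In each of these genes proepicardium library 3 was the highest of its group. The potassium channel gene kcnh6a, which carries the repolarising current of the zebrafish heart, was at 1.01, 2.40, 3.01 and 2.54 CPM in proepicardium libraries and 200.1, 194 and 145 in heart tube libraries (log2 difference -6.33 ± 0.47, adjusted p = 1.21e-05). The pacemaker-type channel hcn2b was at 0.901, 0.580, 1.47 and 0.552 CPM in proepicardium libraries and 57.7, 67.5 and 42.3 in heart tube libraries (log2 difference -5.94 ± 0.42, adjusted p = 9.76e-06). Both were at 3.01 CPM or less in the proepicardium. Gap junction genes went both ways. gjd6 was at 0.169, 0.332, 1.104 and 0.772 CPM in proepicardium libraries and 103, 98.4 and 121 in heart tube libraries (log2 difference -7.49 ± 0.56, adjusted p = 1.21e-05), and gjc4b was at 42.5, 41.0, 102 and 104 CPM in proepicardium libraries and 19.2, 8.15 and 16.4 in heart tube libraries (log2 difference 2.31 ± 0.45, adjusted p = 0.00283). Libraries 3 and 4 of the proepicardium were the highest for gjc4b. Genes of a calcium-activated kinase also differed, as camk2d1 was at 111, 125, 54.04 and 80.7 CPM in proepicardium libraries and 8.89, 0.276 and 0.326 in heart tube libraries (log2 difference 4.84 ± 1.13, adjusted p = 0.0107). CAMK2A was at 1.58, 1.24, 1.66 and 0.993 CPM in proepicardium libraries and 59.4, 45.7 and 43.7 in heart tube libraries (log2 difference -5.15 ± 0.33, adjusted p = 7.06e-06). The groups did not overlap in either gene, and heart tube library 1 held more camk2d1 than the other heart tube libraries. camk2d1 was not called under 2 of 20 alternatives, without proepicardium libraries 1 and 2 together and with no filter (adjusted p 0.0641 to 0.0988).

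Muscle proteins outside the contractile apparatus were also mostly higher in the heart tube. Of 73 genes of the muscle scaffold and its chaperones 67 were tested, and 50 were higher in the heart tube and 4 in the proepicardium, with a median of -3.43. The scaffold proteins proper gave 23 of 25, chaperones 9 of 12, membrane anchors 12 of 21 and turnover factors 6 of 9. CSRP3, a sensor of stretch at the Z-disc, was at 1.07, 2.65, 6.26 and 3.31 CPM in proepicardium libraries and 891, 385 and 492 in heart tube libraries (log2 difference -7.47 ± 0.60, adjusted p = 1.35e-05). The small heat shock protein HSPB7 was at 6.08, 3.98, 19.38 and 6.84 CPM in proepicardium libraries and 890.4, 722 and 1409 in heart tube libraries (log2 difference -6.79 ± 0.58, adjusted p = 2.05e-05). POPDC2, a membrane protein that binds cAMP, was at 0.620, 0.249, 0.184 and 0.221 CPM in proepicardium libraries and 106, 144 and 367 in heart tube libraries (log2 difference -9.23 ± 0.80, adjusted p = 2.96e-05). The groups did not overlap in any of these, and heart tube library 3 held the most HSPB7 and POPDC2. The 4 genes higher in the proepicardium included 2 of 4 copies of ITGB1, a beta subunit shared by many integrins. The copy ENSDARG00000022689 was at 13.5, 29.1, 3.496 and 8.17 CPM in proepicardium libraries and 0.608, 1.86 and 0.570 in heart tube libraries (log2 difference 3.73 ± 0.76, adjusted p = 0.00438), with 34.5 and 62.6 CPM in the pericardium.

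Smooth muscle and stress genes were mixed. Of 21 tested smooth muscle genes 12 were higher in the heart tube and 5 in the proepicardium. acta2, the smooth muscle actin that immature heart muscle also makes, was at 5.18, 4.14, 4.72 and 0.883 CPM in proepicardium libraries and 73.9, 334 and 488 in heart tube libraries. Heart tube library 1 was the lowest of its group and still above the proepicardium (log2 difference -6.30 ± 0.72, adjusted p = 0.000147). Copies of TAGLN, an actin-bundling protein, went both ways. ENSDARG00000045408 was at 0.169, 0.414, 0.920 and 0.221 CPM in proepicardium libraries and 7.07, 36.0 and 11.3 in heart tube libraries (log2 difference -5.33 ± 0.72, adjusted p = 0.000298). ENSDARG00000033466 was at 374, 317, 171 and 155 CPM in proepicardium libraries and 20.7, 90.9 and 121 in heart tube libraries (log2 difference 1.72 ± 0.55, adjusted p = 0.0348). The second was not called under 8 of 20 alternatives, without heart tube library 1, without heart tube library 2, without pericardium library 1, without proepicardium library 1, without proepicardium library 2, without proepicardium libraries 1 and 2 together and in the fit of the 7 libraries, in the test against a 2-fold change (adjusted p 0.0508 to 0.194). The count in the proepicardium was 2 without heart tube library 1 or heart tube library 2 and 3 without heart tube library 3, pericardium library 1, proepicardium library 1, proepicardium library 2, proepicardium library 4 or proepicardium libraries 1 and 2 together. Among 39 tested stress and immediate early genes, which can respond to dissection, 12 were higher in the heart tube and 4 in the proepicardium. SOCS3 (ENSDARG00000025428), a brake on cytokine signals, was at 2.87, 6.05, 1.90 and 2.76 CPM in proepicardium libraries and 71.3, 92.0 and 78.6 in heart tube libraries (log2 difference -4.57 ± 0.40, adjusted p = 2.18e-05). The AP1 factors, to which the best known early genes belong, gave 2 of 8 higher in the heart tube, and the heat shock genes 5 of 11. The number of stress genes higher in the proepicardium was 2 without heart tube library 1, heart tube library 3, pericardium library 1, pericardium library 2 or proepicardium library 2 and 7 without proepicardium library 3 or proepicardium libraries 3 and 4 together.

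Genes of the endocardium and endothelium, the lining of heart and vessels, were called more often on the heart tube side. Of 45 tested, 23 were higher there, 4 were higher in the proepicardium and 18 were not called, at a median of -1.63, with the first count 13 without proepicardium libraries 1 and 2 together and the second 2 without heart tube library 1, heart tube library 2, proepicardium library 2 or proepicardium libraries 1 and 2 together. ESAM, an endothelial adhesion molecule, was at 2.20, 2.57, 4.05 and 3.97 CPM in proepicardium libraries and 35.1, 59.7 and 45.5 in heart tube libraries (log2 difference -3.87 ± 0.37, adjusted p = 3.64e-05). The surface protein gene ecscr was at 0.0563, 0.166, 0.736 and 0 CPM in proepicardium libraries and 27.2, 50.3 and 74.4 in heart tube libraries (log2 difference -7.55 ± 0.76, adjusted p = 6.21e-05). EGFL7, a factor that endothelium secretes, was at 5.97, 5.97, 11.9 and 5.85 CPM in proepicardium libraries and 65.2, 90.1 and 112 in heart tube libraries (log2 difference -3.58 ± 0.38, adjusted p = 6.38e-05). ESAM and EGFL7 were thus low but present in every proepicardium library, and library 3 held the most of each. The share of gene counts was 0.0274 to 0.0520% there and 0.0972 to 0.155% in the heart tube.

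Called targets of Notch and BMP signals were all on the heart tube side, and called ligands were on both. In the Notch list, 4 of 6 tested targets were higher in the heart tube, among them HEY2, a repressor active in the ventricle, at 1.92, 0.663, 7.79 and 1.32 CPM in proepicardium libraries and 20.3, 27.1 and 38.0 in heart tube libraries (log2 difference -3.26 ± 0.74, adjusted p = 0.00781). The ligand jag2b was at 5.29, 7.71, 9.26 and 13.9 CPM in proepicardium libraries and 76.9, 77.8 and 64.6 in heart tube libraries (log2 difference -3.02 ± 0.33, adjusted p = 8.6e-05). The ligand jag1b was at 17.7, 18.9, 21.3 and 20.6 CPM in proepicardium libraries and 5.25, 4.97 and 4.399 in heart tube libraries (log2 difference 2.01 ± 0.29, adjusted p = 0.000415). Each ligand was thus separated without overlap, in opposite directions. The receptor gene notch2 was at 71.5, 83.8, 83.3 and 118 CPM in proepicardium libraries and 27.0, 23.5 and 21.6 in heart tube libraries (log2 difference 1.89 ± 0.29, adjusted p = 0.000606). Among BMP and TGF-beta genes, 5 of 9 tested targets were higher in the heart tube, with id2b, an inhibitor of bHLH factors, at 24.2, 52.2, 22.1 and 10.4 CPM in proepicardium libraries and 723, 765 and 975 in heart tube libraries (log2 difference -4.91 ± 0.53, adjusted p = 7.11e-05). BMP4 was at 21.9, 15.4, 73.5 and 42.9 CPM in proepicardium libraries and 363, 512 and 630.1 in heart tube libraries (log2 difference -3.71 ± 0.50, adjusted p = 0.000289). Its proepicardium values were highest in libraries 3 and 4. Ligands gave 8 higher in the heart tube and 6 in the proepicardium of 24, and the latter included BMP2 (ENSDARG00000041430) and INHBA (ENSDARG00000012671), a subunit of activin. BMP2 was at 12.2, 10.4, 14.4 and 13.1 CPM in proepicardium libraries and 2.21, 4.35 and 5.87 in heart tube libraries (log2 difference 1.60 ± 0.38, adjusted p = 0.00891). INHBA was at 4.00, 3.90, 19.5 and 15.8 CPM in proepicardium libraries and 0.497, 0.276 and 0.896 in heart tube libraries (log2 difference 4.28 ± 0.77, adjusted p = 0.00176). Proepicardium libraries 3 and 4 held the most INHBA. BMP2 was not called under 1 of 20 alternatives, in the test against a 2-fold change (adjusted p 0.0914). The receptor gene acvrl1 was at 15.5, 23.5, 14.0 and 18.3 CPM in proepicardium libraries and 2.32, 1.52 and 1.63 in heart tube libraries (log2 difference 3.28 ± 0.35, adjusted p = 7.47e-05), with 27.2 and 26.7 CPM in the pericardium.

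Among genes of the cardiac jelly, those called for hyaluronan synthesis and binding were higher in the heart tube, and called receptors in the proepicardium. Breakdown genes went both ways. Of 6 tested, 2 copies of HYAL2 were higher in the heart tube, and CEMIP and HYAL4 in the proepicardium. vcana, which encodes the proteoglycan versican that binds hyaluronan, was at 0.113, 0.166, 1.96 and 0.441 CPM in proepicardium libraries and 155, 125 and 86.3 in heart tube libraries (log2 difference -7.44 ± 0.83, adjusted p = 0.000142). The hyaluronan synthase HAS2 was at 1.58, 0.663, 5.89 and 10.26 CPM in proepicardium libraries and 26.8, 45.4 and 51.6 in heart tube libraries (log2 difference -3.18 ± 0.73, adjusted p = 0.00874). The link protein HAPLN1 (ENSDARG00000068516) was at 1.46, 2.32, 1.41 and 1.99 CPM in proepicardium libraries and 86.6, 47.9 and 8.06 in heart tube libraries (log2 difference -4.73 ± 0.72, adjusted p = 0.000828). For all 3, each heart tube library exceeded each of the proepicardium. All 3 tested receptor genes were higher in the proepicardium, among them hmmr, a hyaluronan-binding motility receptor also known from dividing cells, at 14.4, 13.4, 19.1 and 18.2 CPM in proepicardium libraries and 8.45, 6.91 and 3.34 in heart tube libraries (log2 difference 1.38 ± 0.37, adjusted p = 0.0161). hmmr was not called under 4 of 20 alternatives, without heart tube library 2, without heart tube library 3, without proepicardium libraries 3 and 4 together and in the test against a 2-fold change (adjusted p 0.0514 to 0.197). Over the list, 6 of 18 were higher in the heart tube and 5 in the proepicardium, and the latter count was 2 without heart tube library 2 and 3 without heart tube library 3 or proepicardium libraries 3 and 4 together.

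Hox genes were called on the proepicardium side. Hox proteins give cells their position along the body axis, and Meis and Pbx proteins bind DNA with them. Of 59 genes matched 39 passed the filter, 25 were higher in the proepicardium against 0 in the heart tube (edgeR; 0 at an unadjusted p under 0.05, by DESeq2 and by limma-voom; 2 without proepicardium libraries 3 and 4). Hox genes proper gave 21 of 29 and the cofactors 4 of 10. Because 9 genes were at 0 in one tissue, the median difference of 3.55 became 2.90 with those genes set to the bound that 3 counts per library give. Several genes of the B cluster were highest in proepicardium library 3. HOXB5 (ENSDARG00000013057) was at 11.2, 18.7, 35.3 and 22.3 CPM in proepicardium libraries and 5.19, 0.276 and 0.407 in heart tube libraries (log2 difference 3.44 ± 0.90, adjusted p = 0.0159), with 4.31 and 4.34 CPM in the pericardium. HOXB8 was at 5.80, 3.15, 17.1 and 3.42 CPM in proepicardium libraries and 1.60, 0.760 and 0.163 in heart tube libraries (log2 difference 3.09 ± 0.83, adjusted p = 0.0155), with 0.701 and 0.868 CPM in the pericardium. In both genes each proepicardium library exceeded every heart tube and pericardium library. HOXB5 was not called under 2 of 20 alternatives, without proepicardium libraries 3 and 4 together and with no filter (adjusted p 0.0755 to 0.0803), and HOXB8 under 2 of 20 alternatives, without heart tube library 2, without proepicardium libraries 3 and 4 together (adjusted p 0.057 to 0.066). The cofactor meis3 followed this order, at 13.1, 24.0, 69.3 and 26.3 CPM in proepicardium libraries and 1.33, 2.76 and 4.48 in heart tube libraries (log2 difference 3.55 ± 0.62, adjusted p = 0.00157), with 4.71 and 4.95 CPM in the pericardium.

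Other Hox genes, of the A, C and D clusters, showed another order. HOXC6 (ENSDARG00000070343) was at 4.68, 10.9, 3.86 and 0.110 CPM in proepicardium libraries and 0, 0 and 0 in heart tube libraries, with 11.9 and 22.1 CPM in the pericardium. HOXD10 was at 3.44, 3.56, 0.368 and 0.110 CPM in proepicardium libraries and 0, 0 and 0 in heart tube libraries, with 5.21 and 5.82 CPM in the pericardium. hoxa13b was at 1.35, 4.56, 0.491 and 0.331 CPM in proepicardium libraries and 0, 0 and 0 in heart tube libraries, with 6.06 and 2.95 CPM in the pericardium. All of these were at 0 in every heart tube library, so only lower bounds can be given, with 3 counts set per library, of at least 23.8-fold for HOXC6, 9.09-fold for HOXD10 and 8.18-fold for hoxa13b. Within the proepicardium they were lowest in library 4 and highest in library 2, and in each of them the higher pericardium library exceeded every proepicardium library. The epidermal markers together were also highest in library 2 and in the pericardium, and lowest in library 3. Whether the epidermal share had a part in them was not tested. HOXD4 was at 39.0, 35.6, 36.7 and 13.1 CPM in proepicardium libraries and 2.60, 0.0691 and 0.326 in heart tube libraries (log2 difference 4.89 ± 0.89, adjusted p = 0.00253), with 37.1 and 31.0 CPM in the pericardium. Library 4 was low for HOXD4 as well, and heart tube library 1 held more of it than the other heart tube libraries.

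**Figure D3:**
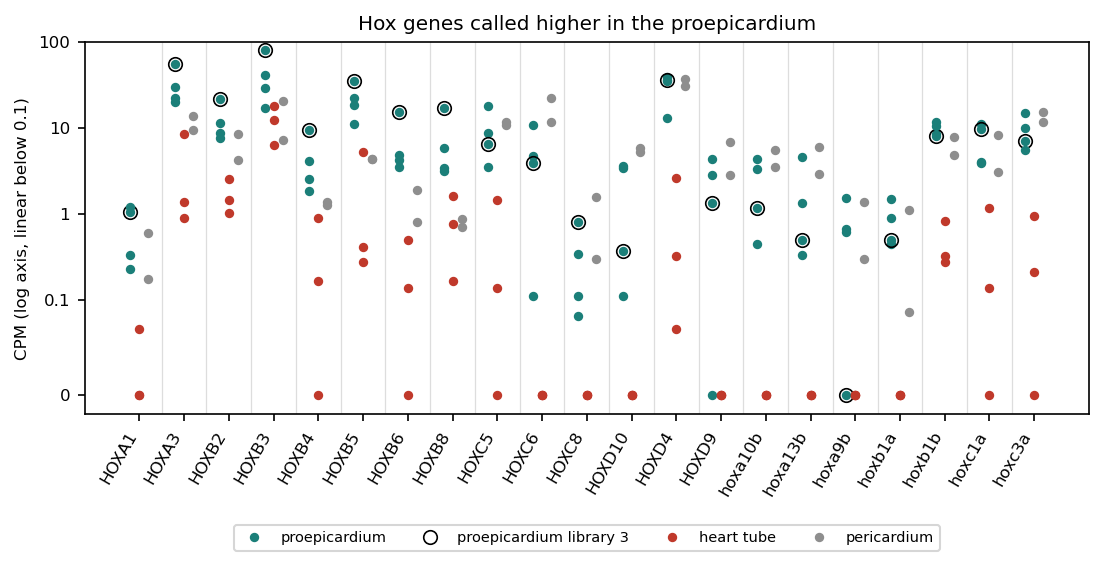
CPM (log axis, linear below 0.1) of the 21 Hox genes called higher in the proepicardium, for the 4 proepicardium, 3 heart tube and 2 pericardium libraries, with proepicardium library 3 circled. HOXA3, HOXB2, HOXB3, HOXB4, HOXB5, HOXB6 and HOXB8 are highest in library 3, whereas HOXC6, HOXD10, hoxa10b and hoxa13b are at 0 in the heart tube and highest in the pericardium.

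Retinoic acid, a vitamin A derivative that patterns the heart field and acts on Hox genes in vertebrates, had called genes at each step. Of 36 genes 30 were tested, 15 were higher in the proepicardium against 1 in the heart tube, and the median was 1.78. The first count was 9 without proepicardium library 4 and the second 2 without heart tube library 1 and 3 without proepicardium libraries 3 and 4 together. For synthesis, RDH10 (ENSDARG00000058730), which makes retinal from retinol, was at 23.1, 26.9, 60.3 and 94.3 CPM in proepicardium libraries and 1.99, 5.18 and 4.89 in heart tube libraries. Libraries 3 and 4 were the highest, and the groups did not overlap (log2 difference 3.67 ± 0.58, adjusted p = 0.000796). DHRS3, which turns retinal back into retinol, had copies called in opposite directions. The copy with more counts (ENSDARG00000044803) was at 14.7, 14.4, 15.2 and 12.1 CPM in proepicardium libraries and 59.9, 40.4 and 56.9 in heart tube libraries and was the gene higher in the heart tube (log2 difference -1.89 ± 0.26, adjusted p = 0.00035). The other (ENSDARG00000044982) was called higher in the proepicardium, at 0.507, 0.497, 5.03 and 2.54 CPM in proepicardium libraries and 0, 0.138 and 0 in heart tube libraries. ALDH1A2, which makes retinoic acid itself and is an epicardial gene in many species, overlapped between the tissues, at 11.2, 6.88, 30.9 and 26.4 CPM in proepicardium libraries and 13.1, 100.4 and 45.4 in heart tube libraries, and was not called. For uptake and binding, STRA6, a receptor for retinol-binding protein, was at 4.90, 2.65, 7.12 and 1.99 CPM in proepicardium libraries and 0.442, 0.483 and 0.652 in heart tube libraries (log2 difference 2.98 ± 0.73, adjusted p = 0.01), with 0.451 and 0.0868 CPM in the pericardium. CRABP1 (ENSDARG00000035904), which binds retinoic acid in cells, was at 9.35, 17.2, 56.8 and 11.1 CPM in proepicardium libraries and 0.773, 2.97 and 2.20 in heart tube libraries (log2 difference 3.58 ± 0.75, adjusted p = 0.00463). The retinol carrier rbp5 was at 15.6, 15.8, 69.1 and 35.2 CPM in proepicardium libraries and 1.82, 1.93 and 6.84 in heart tube libraries (log2 difference 3.27 ± 0.68, adjusted p = 0.00453). Each of these was highest in library 3. For breakdown, CYP26A1, an enzyme that degrades retinoic acid and is induced by it, was at 79.9, 33.5, 18.9 and 17.9 CPM in proepicardium libraries and 0.552, 0.138 and 0.489 in heart tube libraries (log2 difference 6.54 ± 0.73, adjusted p = 0.000104), with 65.4 and 79.2 CPM in the pericardium. CYP26A1 was highest in library 1 and lowest in library 4, and RDH10 was lowest in library 1 and highest in library 4. Of 10 tested receptors 4 were higher in the proepicardium, and of 7 targets 3 were.

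Transcription factors of mesoderm and mesenchyme were on both sides. Of 61 genes 56 were tested, 18 were higher in the proepicardium against 9 in the heart tube, and the first count was 11 without proepicardium libraries 3 and 4 together. The full counts were 32.1% and 16.1%, against 16.8% and 12.7% over all genes, so the heart tube share was near that over all genes. foxf2a, a forkhead factor of lateral mesoderm, was at 9.52, 6.96, 35.02 and 23.6 CPM in proepicardium libraries and 2.93, 0.8288 and 1.30 in heart tube libraries (log2 difference 3.45 ± 0.70, adjusted p = 0.00353). OSR1, a zinc finger factor of lateral and intermediate mesoderm, was at 10.9, 10.6, 24.9 and 18.2 CPM in proepicardium libraries and 0.994, 0.553 and 2.12 in heart tube libraries (log2 difference 3.73 ± 0.59, adjusted p = 0.000765). twist1a, a factor of mesenchymal cells, was at 12.2, 14.4, 41.2 and 18.4 CPM in proepicardium libraries and 3.04, 0.345 and 2.61 in heart tube libraries (log2 difference 3.42 ± 0.68, adjusted p = 0.00341). All 3 were highest in library 3 with library 4 next, and did not overlap the heart tube. twist2 had the same order, at 2.20, 3.98, 22.2 and 13.5 CPM in proepicardium libraries and 1.16, 0.207 and 1.14 in heart tube libraries (log2 difference 3.63 ± 0.90, adjusted p = 0.0111), but was not called under 1 of 20 alternatives, without proepicardium libraries 3 and 4 together (adjusted p 0.109). TBX3 had another, at 45.7, 52.3, 15.2 and 24.1 CPM in proepicardium libraries and 2.98, 0.138 and 0.896 in heart tube libraries (log2 difference 4.63 ± 0.82, adjusted p = 0.00214), with libraries 1 and 2 above 3 and 4. On the heart tube side was MEF2C (ENSDARG00000029764), a factor of muscle differentiation, at 8.39, 4.73, 13.3 and 9.60 CPM in proepicardium libraries and 93.2, 78.9 and 45.5 in heart tube libraries (log2 difference -3.01 ± 0.38, adjusted p = 0.000181). IRX1 (ENSDARG00000101831), a homeobox gene known from the ventricle, was at 2.42, 1.91, 6.07 and 3.86 CPM in proepicardium libraries and 57.7, 42.2 and 27.9 in heart tube libraries (log2 difference -3.57 ± 0.43, adjusted p = 0.000147). No library overlapped between the tissues in either gene. The other copy of IRX1 (ENSDARG00000056594) was higher in the proepicardium, at 1.35, 1.66, 10.24 and 11.9 CPM in proepicardium libraries and 0, 0.276 and 0 in heart tube libraries (log2 difference 5.98 ± 1.28, adjusted p = 0.00488), but was not called under 1 of 19 alternatives, without proepicardium libraries 3 and 4 together (adjusted p 0.0591). ZEB1, a repressor known for driving mesenchymal change, was also higher in the heart tube, at 3.66, 6.38, 19.1 and 11.9 CPM in proepicardium libraries and 68.3, 58.4 and 50.5 in heart tube libraries (log2 difference -2.53 ± 0.48, adjusted p = 0.00248).

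Genes of secreted signals and their receptors were more often on the proepicardium side. Of 102 genes 77 were tested. Of the 77 growth factor and chemokine genes 32 were higher there and 9 in the heart tube, at a median of 1.13, and the second count was 16 without proepicardium libraries 3 and 4 together. The chemokine genes gave 7 of 9. CXCL12, which attracts cells that carry CXCR4, was at 16.7, 24.1, 72.5 and 79.9 CPM in proepicardium libraries and 2.60, 1.73 and 3.75 in heart tube libraries (log2 difference 4.17 ± 0.66, adjusted p = 0.000946). cxcl12b was at 10.4, 7.79, 42.3 and 51.6 CPM in proepicardium libraries and 1.66, 0.553 and 5.95 in heart tube libraries (log2 difference 3.38 ± 0.99, adjusted p = 0.0285). Libraries 3 and 4 of the proepicardium were above 1 and 2 in both, and no library overlapped the heart tube. The receptor gene CXCR4 (ENSDARG00000041959) was at 21.7, 7.96, 12.3 and 10.4 CPM in proepicardium libraries and 2.98, 1.86 and 0.244 in heart tube libraries, with library 1 highest (log2 difference 2.92 ± 0.75, adjusted p = 0.0137). cxcl12b was not called under 7 of 20 alternatives, without heart tube library 1, without heart tube library 2, without proepicardium library 3, without proepicardium library 4, without proepicardium libraries 3 and 4 together and with no filter, in the test against a 2-fold change (adjusted p 0.0503 to 0.167), and CXCR4 under 1 of 20 alternatives, without proepicardium libraries 1 and 2 together (adjusted p 0.0506). Among PDGF genes, all 3 tested copies of PDGFA were higher in the proepicardium, and PDGFA (ENSDARG00000098578) was at 4.62, 5.55, 13.004 and 12.9 CPM in proepicardium libraries and 0.331, 1.38 and 0.978 in heart tube libraries (log2 difference 3.33 ± 0.62, adjusted p = 0.00212). The receptor PDGFRA, a mark of mesenchyme, was at 25.9, 44.8, 130.2 and 91.1 CPM in proepicardium libraries and 28.1, 18.1 and 24.8 in heart tube libraries (log2 difference 1.63 ± 0.50, adjusted p = 0.0282). Library 1 fell within the heart tube range, libraries 2, 3 and 4 stood above it, and the pericardium, with 23.9 and 15.5 CPM, did not. PDGFRA was not called under 6 of 20 alternatives, without heart tube library 2, without heart tube library 3, without proepicardium library 3, without proepicardium library 4, without proepicardium libraries 3 and 4 together and in the test against a 2-fold change (adjusted p 0.0657 to 0.281). ERBB3, a neuregulin receptor, was at 13.8, 41.7, 6.56 and 17.7 CPM in proepicardium libraries and 0.442, 0 and 0.0815 in heart tube libraries (log2 difference 6.64 ± 0.95, adjusted p = 0.000552). ERBB4 (ENSDARG00000090408), another neuregulin receptor, was at 0, 0, 0.613 and 0.110 CPM in proepicardium libraries and 5.25, 9.19 and 7.66 in heart tube libraries (log2 difference -5.21 ± 1.11, adjusted p = 0.00488). These receptor genes were thus separated in opposite directions. Of 25 tested FGF genes 9 were higher in the proepicardium against 3 in the heart tube. fgfbp2b, which encodes an FGF-binding protein, was at 5.07, 12.8, 50.1 and 28.03 CPM in proepicardium libraries and 0.663, 0.414 and 0.407 in heart tube libraries (log2 difference 5.55 ± 0.82, adjusted p = 0.000609). The ligand fgf17 was at 2.25, 0, 0.859 and 1.32 CPM in proepicardium libraries and 27.7, 31.7 and 29.7 in heart tube libraries (log2 difference -4.71 ± 0.79, adjusted p = 0.00138). The growth factor igf2a was at 53.96, 72.1, 16.4 and 10.26 CPM in proepicardium libraries and 1.66, 0 and 1.30 in heart tube libraries (log2 difference 5.25 ± 1.07, adjusted p = 0.0058). fgfbp2b was highest in library 3 and igf2a in library 2, while fgf17 was even across the heart tube. The midkine family gene PTN, higher in the heart tube, was at 0.338, 0.249, 1.53 and 0.331 CPM in proepicardium libraries and 10.27, 14.1 and 11.2 in heart tube libraries (log2 difference -4.21 ± 0.64, adjusted p = 0.000595).

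For Wnt, secreted antagonists stood on both sides. Of 72 genes 55 were tested. Of these 16 were higher in the proepicardium, 10 without heart tube library 2, and 6 in the heart tube, 12 without proepicardium libraries 3 and 4 together. SFRP2 was at 7.10, 36.8, 64.5 and 18.3 CPM in proepicardium libraries and 0.276, 0.691 and 2.69 in heart tube libraries (log2 difference 4.74 ± 0.93, adjusted p = 0.00386), with 4.51 and 5.82 CPM in the pericardium. SFRP1 (ENSDARG00000035521) was at 6.20, 2.57, 13.9 and 26.5 CPM in proepicardium libraries and 0.939, 1.31 and 0.489 in heart tube libraries (log2 difference 3.72 ± 0.78, adjusted p = 0.00417), with 4.76 and 2.95 CPM in the pericardium. These decoys for Wnt ligands varied widely within the proepicardium without overlapping the heart tube. On the heart tube side was dkk1b, a blocker of the Wnt co-receptor, at 14.0, 5.31, 15.6 and 9.16 CPM in proepicardium libraries and 95.5, 171 and 100.4 in heart tube libraries (log2 difference -3.47 ± 0.40, adjusted p = 0.000101). APCDD1L, of a family of Wnt inhibitors, was at 8.22, 4.81, 16.01 and 7.06 CPM in proepicardium libraries and 82.1, 254 and 195 in heart tube libraries (log2 difference -4.29 ± 0.48, adjusted p = 9.53e-05). Of 15 tested ligands 7 were higher in the proepicardium against 2 in the heart tube. WNT7B was at 7.83, 18.8, 7.24 and 29.2 CPM in proepicardium libraries and 2.38, 0.138 and 0.163 in heart tube libraries (log2 difference 4.06 ± 0.94, adjusted p = 0.00881). The Wnt-responsive factor LEF1 was at 25.2, 33.7, 26.6 and 31.9 CPM in proepicardium libraries and 5.52, 8.29 and 13.4 in heart tube libraries (log2 difference 1.69 ± 0.34, adjusted p = 0.00328). Guidance cues were near the shares over all genes, with 14 of 74 tested higher in the proepicardium against 10 in the heart tube. The first count was 8 without heart tube library 2 or heart tube library 3 and 9 without pericardium library 1 or proepicardium library 2, and the second 3 without proepicardium libraries 1 and 2 together, 5 without heart tube library 2, proepicardium library 1 or proepicardium library 2 and 6 without heart tube library 3. Within this list copies of SEMA3F, a secreted repellent, went opposite ways. ENSDARG00000011163 was at 7.10, 13.3, 33.4 and 44.2 CPM in proepicardium libraries and 3.204, 1.38 and 4.07 in heart tube libraries (log2 difference 3.08 ± 0.65, adjusted p = 0.00439). ENSDARG00000055373 was at 10.5, 14.5, 12.5 and 23.4 CPM in proepicardium libraries and 63.6, 50.3 and 38.5 in heart tube libraries (log2 difference -1.74 ± 0.33, adjusted p = 0.00238).

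Collagen genes were mostly higher in the proepicardium. Of 57 genes 45 were tested, 31 were higher in the proepicardium against 2 in the heart tube, with a median of 3.38. COL1A2, a chain of the main fibrillar collagen, was at 799, 1745, 531 and 737 CPM in proepicardium libraries and 53.1, 67.6 and 70.5 in heart tube libraries (log2 difference 3.90 ± 0.46, adjusted p = 0.000125), with 1798 and 1287 CPM in the pericardium. COL6A3, a chain of a collagen that fibroblasts lay around cells, was at 16.9, 90.4, 93.4 and 58.9 CPM in proepicardium libraries and 7.18, 1.93 and 5.13 in heart tube libraries (log2 difference 3.77 ± 0.64, adjusted p = 0.00143), with 26.4 and 31.1 CPM in the pericardium. COL1A2 was highest in library 2 and COL6A3 in libraries 2 and 3, and neither overlapped the heart tube. col28a2a was at 246, 549.6, 52.3 and 122.6 CPM in proepicardium libraries and 0.387, 0.967 and 0.326 in heart tube libraries (log2 difference 8.74 ± 0.99, adjusted p = 0.000155), with 570.0 and 441.4 CPM in the pericardium. The anchoring collagen of skin col7a1 was at 33.7, 72.5, 9.63 and 44.7 CPM in proepicardium libraries and 0.331, 0 and 0.0815 in heart tube libraries (log2 difference 7.98 ± 0.94, adjusted p = 0.000179), with 57.7 and 68.3 CPM in the pericardium. For both the pericardium lay within or above the range of the proepicardium, and proepicardium library 3 was the lowest. In all, 16 of the 31 collagens were lowest in library 3, as were 47.1% of all 2853 genes called higher. On the heart tube side COL4A1, a basement membrane collagen, was at 1.86, 1.82, 5.09 and 7.39 CPM in proepicardium libraries and 18.8, 9.95 and 13.7 in heart tube libraries (log2 difference -1.82 ± 0.52, adjusted p = 0.0205). The transmembrane collagen col23a1b was at 1.58, 1.66, 2.45 and 4.303 CPM in proepicardium libraries and 17.6, 38.1 and 13.4 in heart tube libraries (log2 difference -3.22 ± 0.51, adjusted p = 0.000799). COL4A1 was not called under 3 of 20 alternatives, without heart tube library 1, without proepicardium libraries 1 and 2 together and in the test against a 2-fold change (adjusted p 0.0739 to 0.11), and the number of collagens higher in the heart tube was 1 without heart tube library 1 or proepicardium libraries 1 and 2 together.

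Other matrix genes were also more often higher in the proepicardium. Of 107 genes 83 were tested. Of the 83 matrix glycoprotein and remodelling genes, 33 were higher in the proepicardium against 9 in the heart tube, at a median of 1.05, the latter count being 4 without heart tube library 2 or proepicardium libraries 1 and 2 together. FN1 (ENSDARG00000006526), fibronectin, was at 1349.9, 3048, 272 and 449 CPM in proepicardium libraries and 26.1, 7.80 and 24.9 in heart tube libraries (log2 difference 6.03 ± 0.98, adjusted p = 0.00144), with 2555 and 4037 CPM in the pericardium. Libraries 1 and 2 held more than 3 and 4, and all were above the heart tube. The adhesion glycoprotein THBS4 (ENSDARG00000020072) had another order, at 3.38, 47.1, 35.5 and 3.53 CPM in proepicardium libraries and 0.994, 0.0691 and 0.244 in heart tube libraries, with libraries 2 and 3 highest (log2 difference 5.58 ± 1.26, adjusted p = 0.00917). THBS4 was not called under 1 of 20 alternatives, with no filter (adjusted p 0.0508). Proteases gave 15 of 28 higher in the proepicardium, and mmp30, a metalloproteinase, was at 27.9, 33.7, 7.91 and 10.7 CPM in proepicardium libraries and 0.0552, 0 and 0.0815 in heart tube libraries, which is a total of 2 counts in the heart tube. CCN1, a matrix protein induced by stretch, was at 4.06, 3.48, 6.32 and 2.65 CPM in proepicardium libraries and 36.2, 140.4 and 41.9 in heart tube libraries, with heart tube library 2 the highest (log2 difference -4.13 ± 0.50, adjusted p = 0.000152). Basement membrane genes gave 16 of 52 tested higher in the proepicardium against 8 in the heart tube, 4 without heart tube library 2 and 5 without proepicardium libraries 1 and 2 together. With all libraries these were 30.8% and 15.4%, against 16.8% and 12.7% over all genes, so the heart tube share was near that over all genes. Integrins accounted for 8 of the 16, with ITGB4, the hemidesmosome integrin of epithelia, at 64.5, 89.2, 28.6 and 59.8 CPM in proepicardium libraries and 1.49, 1.38 and 0.489 in heart tube libraries (log2 difference 5.72 ± 0.54, adjusted p = 3.54e-05). Laminins were divided as 4 and 4 of 12. LAMB2 was at 0.676, 1.49, 1.84 and 2.54 CPM in proepicardium libraries and 37.4, 50.2 and 27.2 in heart tube libraries (log2 difference -4.57 ± 0.46, adjusted p = 4.8e-05). lamb4, another beta chain, was at 18.6, 57.9, 3.31 and 15.01 CPM in proepicardium libraries and 0.0552, 0.207 and 0.570 in heart tube libraries (log2 difference 6.48 ± 1.11, adjusted p = 0.00204). No basement membrane gene of the 16 was highest in proepicardium library 3, against 14.2% of all 2853 genes called higher. The 8 lowest there were 50%, near the 47.1% over all 2853.

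Genes for plasma proteins that liver and yolk make were mostly higher in the proepicardium. Of 60 genes 47 were tested, 33 were higher there and 0 in the heart tube (edgeR; 0 at an unadjusted p under 0.05, by DESeq2 and by limma-voom), at a median of 2.32. The count was 14 without heart tube library 3 or proepicardium libraries 1 and 2 together, 18 without heart tube library 2 and 19 without proepicardium library 1, and 17 in the test against 2-fold. RBP4, which carries retinol in blood, was at 1616, 2059, 231 and 141 CPM in proepicardium libraries and 4.36, 1.45 and 1.71 in heart tube libraries (log2 difference 8.64 ± 1.25, adjusted p = 0.000963), with 2116 and 2499 CPM in the pericardium. apoeb, an apolipoprotein that zebrafish epithelium and yolk both make, was at 852, 893, 353 and 715 CPM in proepicardium libraries and 20.4, 8.15 and 15.07 in heart tube libraries (log2 difference 5.59 ± 0.51, adjusted p = 2.56e-05), with 1323 and 1834 CPM in the pericardium. Both were highest in library 2 of the proepicardium, as the epidermal markers were, and higher still in the pericardium. The lipoprotein genes apoc1 and apoa2 differed from them. apoc1 was at 147, 127, 367 and 51.6 CPM in proepicardium libraries and 39.5, 20.5 and 12.8 in heart tube libraries (log2 difference 2.83 ± 0.66, adjusted p = 0.00828), with 13.6 and 7.55 CPM in the pericardium. apoa2 was at 156, 107, 236 and 94.8 CPM in proepicardium libraries and 70.0, 53.5 and 35.4 in heart tube libraries (log2 difference 1.49 ± 0.39, adjusted p = 0.0132), with 16.2 and 12.9 CPM in the pericardium. Library 3 was the highest for these, and the mean of the pericardium was below that of the heart tube. apoa2 was not called under 3 of 20 alternatives, without heart tube library 2, without heart tube library 3 and in the test against a 2-fold change (adjusted p 0.0552 to 0.141). Of 3 tested liver markers 2 were higher in the proepicardium, and the 6 on the list together took 0.00263 to 0.0130% of gene counts in proepicardium libraries and 0.00108 to 0.00274% in heart tube libraries. fabp10a, a defining gene of hepatocytes, was at 0 in all proepicardium and heart tube libraries. The part of liver or yolk material in the other differences was not tested.

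The secretory pathway had calls on the proepicardium side only, at a share not far above that over all genes, and caveolae had calls on both sides. Of 61 tested secretory genes 14 were higher in the proepicardium against 0 in the heart tube (edgeR; 0 at an unadjusted p under 0.05, by DESeq2 and by limma-voom). This was 23.0%, against 16.8% of all genes tested. The count was 8 without heart tube library 2 or heart tube library 3 and 9 without heart tube library 1. Of the 14, 9 were transport genes and none was a folding chaperone. CREB3L1, a factor that switches on collagen secretion, was at 100.3, 61.6, 18.8 and 26.3 CPM in proepicardium libraries and 0.608, 0.0691 and 0.0815 in heart tube libraries (log2 difference 7.51 ± 0.90, adjusted p = 0.000204). KDELR2, a receptor that returns proteins to the endoplasmic reticulum, was at 216, 85.9, 48.7 and 90.4 CPM in proepicardium libraries and 26.3, 29.1 and 26.2 in heart tube libraries (log2 difference 2.02 ± 0.47, adjusted p = 0.00794). Both were lowest in library 3, as were 11 of the 14. Caveolae, pits of the cell surface that buffer stretch, gave 6 of 12 higher in the proepicardium, 2 without heart tube library 3 and 3 without heart tube library 2 or proepicardium library 2. The 1 higher in the heart tube was 8.3%, below the 12.7% over all genes. CAVIN2 (ENSDARG00000027611) was at 82.1, 88.4, 33.4 and 47.3 CPM in proepicardium libraries and 2.15, 0.207 and 0.896 in heart tube libraries (log2 difference 5.81 ± 0.70, adjusted p = 0.000175). CAVIN1, another coat protein, had copies called in opposite directions. One (ENSDARG00000076411) was at 0.0563, 0.580, 0.736 and 0.110 CPM in proepicardium libraries and 12.2, 31.4 and 18.1 in heart tube libraries, higher in the heart tube with no overlap (log2 difference -5.73 ± 0.70, adjusted p = 0.000144). The other (ENSDARG00000059362) was at 11.8, 36.8, 7.24 and 2.98 CPM in proepicardium libraries and 2.099, 4.56 and 3.26 in heart tube libraries, higher in the proepicardium as CAVIN2 was (log2 difference 2.15 ± 0.73, adjusted p = 0.0457). Its groups overlapped, and it was not called under 13 of 20 alternatives, without heart tube library 1, without heart tube library 2, without heart tube library 3, without pericardium library 1, without pericardium library 2, without proepicardium library 1, without proepicardium library 2, without proepicardium libraries 1 and 2 together and in the fit of the 7 libraries, by limma-voom, with a mean count of at least 50, with no filter, in the test against a 2-fold change (adjusted p 0.051 to 0.294).

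Epithelial genes made up the remaining large group higher in the proepicardium. Of 30 tested epithelial transcription and splicing factors 27 were higher there and 0 in the heart tube (edgeR; 0 at an unadjusted p under 0.05, by DESeq2 and by limma-voom), at a median of 4.53. Of 74 tested junction genes 41 were higher in the proepicardium against 5 in the heart tube, the latter 8 without proepicardium library 3 and 10 without proepicardium libraries 3 and 4 together. cldn7b, a claudin that seals tight junctions, was at 362, 326, 156 and 343 CPM in proepicardium libraries and 3.15, 3.52 and 1.38 in heart tube libraries (log2 difference 6.78 ± 0.51, adjusted p = 1.21e-05), with 486 and 409 CPM in the pericardium. foxi1, a forkhead factor of placodes and ionocytes, was at 21.9, 20.3, 10.9 and 16.2 CPM in proepicardium libraries and 0.221, 0.0691 and 0.0815 in heart tube libraries (log2 difference 6.96 ± 0.56, adjusted p = 1.35e-05), with 31.5 and 18.4 CPM in the pericardium. Each was lowest in proepicardium library 3, and the pericardium lay within or above the range of the proepicardium. None of the 41 junction genes was highest in library 3 and 37 (90.2%) were lowest there. Ionocytes, the salt-transporting cells of larval skin, gave 17 of 26 genes higher in the proepicardium against 2 in the heart tube, with the first count 10 without proepicardium libraries 1 and 2 together and the second 1 without heart tube library 3. RHBG, an ammonia channel, was at 161, 445, 74.6 and 289.9 CPM in proepicardium libraries and 3.87, 1.11 and 0.163 in heart tube libraries (log2 difference 7.11 ± 1.05, adjusted p = 0.000931), with 328 and 336 CPM in the pericardium. The ionocyte list as a whole took a larger share of counts in the heart tube, at 0.216 to 0.277% against 0.0757 to 0.191%, the opposite of its counts. Most of the heart tube share came from a copy each of ATP1B1 and SLC4A1. The SLC4A1 copy (ENSDARG00000012881), also among the erythrocyte markers, averaged 359 CPM in the heart tube and was not called. ATP1B1 (ENSDARG00000013144), a sodium pump subunit also used by heart muscle, was at 122, 107, 174 and 177 CPM in proepicardium libraries and 2293, 1774 and 2312 in heart tube libraries (log2 difference -3.87 ± 0.31, adjusted p = 1.35e-05). The other copy of ATP1B1 (ENSDARG00000076833) was higher in the proepicardium, at 118, 229, 35.02 and 30.7 CPM in proepicardium libraries and 3.15, 0.207 and 0.326 in heart tube libraries (log2 difference 6.33 ± 1.19, adjusted p = 0.00381). Keratins gave 8 of 17 tested genes higher in the proepicardium against 1 in the heart tube, with the first count 3 without proepicardium libraries 1 and 2 together, 5 without pericardium library 1, pericardium library 2 or proepicardium library 2 and 13 without heart tube library 1, and the count of 1 in the heart tube was krt94. krt92 was at 174, 172, 253 and 252 CPM in proepicardium libraries and 9.78, 2.49 and 1.06 in heart tube libraries (log2 difference 5.57 ± 0.79, adjusted p = 0.000535). The share of counts of the epidermal markers was 1.31 to 5.28% in the proepicardium, 6.12 and 7.27% in the pericardium and 0.0249 to 0.642% in the heart tube, and its part in the epithelial, ionocyte and keratin differences was not tested. Without proepicardium libraries 1 and 2 the count over all genes higher in the proepicardium was 2048, and without libraries 3 and 4 it was 2722.

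Some junction genes ran the other way. CDH2, the cadherin that joins heart muscle cells, was at 17.1, 17.4, 68.2 and 42.9 CPM in proepicardium libraries and 79.2, 238 and 251 in heart tube libraries (log2 difference -2.38 ± 0.54, adjusted p = 0.00698). tjp1b, a scaffold under tight and other junctions, was at 39.4, 41.5, 49.7 and 65.7 CPM in proepicardium libraries and 286, 225 and 200.1 in heart tube libraries (log2 difference -2.27 ± 0.29, adjusted p = 0.000195). Within the proepicardium libraries 3 and 4 were the highest for both. PKP3, a desmosome plaque protein, was also higher in the heart tube, at 5.63, 4.89, 9.38 and 10.26 CPM in proepicardium libraries and 60.2, 89.6 and 50.8 in heart tube libraries (log2 difference -3.15 ± 0.35, adjusted p = 8.6e-05).

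**Figure D4:**
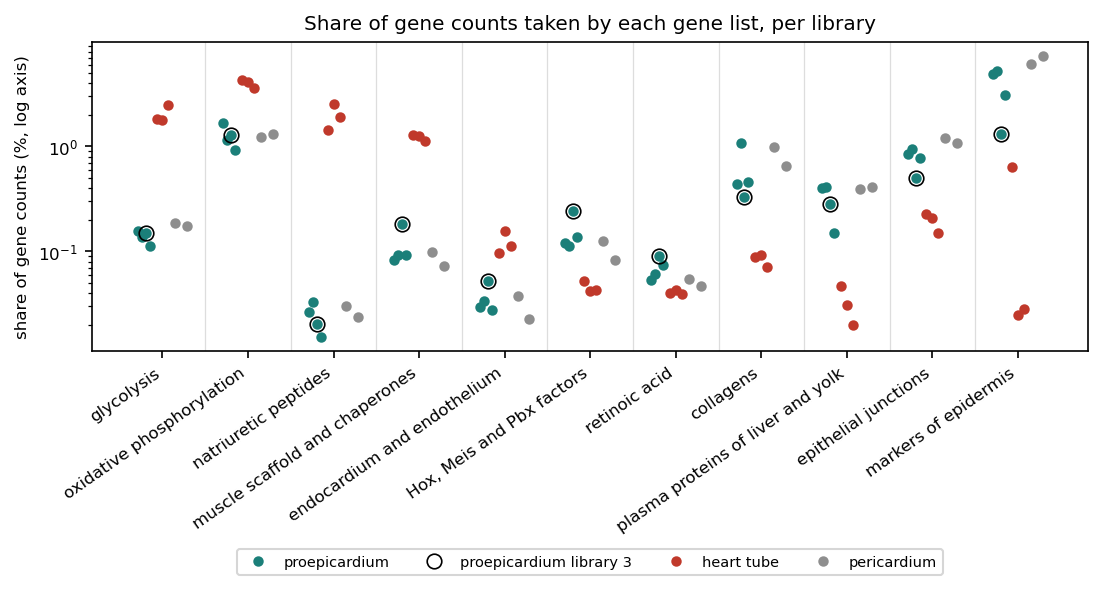
Share of gene counts (%, log axis) taken by 11 gene lists in each library, with proepicardium library 3 circled. Glycolysis, oxidative phosphorylation, natriuretic peptides and muscle scaffold are higher in all 3 heart tube libraries, and Hox, collagen, plasma protein, junction and epidermal lists are higher in all 4 proepicardium libraries, with the pericardium close to the proepicardium.

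Within the proepicardium, the lists differed in which library held their highest levels. Over all 2853 genes called higher, 14.2% were highest in library 3 and 47.1% were lowest there. Among the mesoderm and mesenchyme factors 12 of 18 (66.7%) were highest in library 3, among Hox, Meis and Pbx genes 11 of 25 (44.0%) and among retinoic acid genes 6 of 15 (40.0%). The 7 markers of skeletal muscle together took 0.0410%, 0.0192%, 0.118% and 0.0630% of gene counts in proepicardium libraries and 0.289%, 0.534% and 0.549% in heart tube libraries, and were also highest in library 3 among the proepicardium libraries. In the heart tube most of this share came from ckma and both copies of ACTA1. MYOG, MYOD1 and both copies of TNNT3 had higher means in the proepicardium, though none of them was called. Of the 7 markers, all but 1 copy of ACTA1 were highest in proepicardium library 3, with MYOD1, a factor that starts skeletal muscle differentiation, at 24.6, 16.3, 105 and 30.1 CPM in proepicardium libraries and 19.6, 0.967 and 1.22 in heart tube libraries. Their part in the order of the libraries was not tested. Among junction genes and epithelial factors none was highest in library 3. Plasma proteins were highest in library 1 for 15 of 33 and in library 3 for 13, and 21 were lowest in library 4. Of all 2853 genes called higher, 863 were highest in library 1, 404 in library 3, and 716 were lowest in library 4. These are counts over genes of the same 4 libraries and carry no test.

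**Figure D5:**
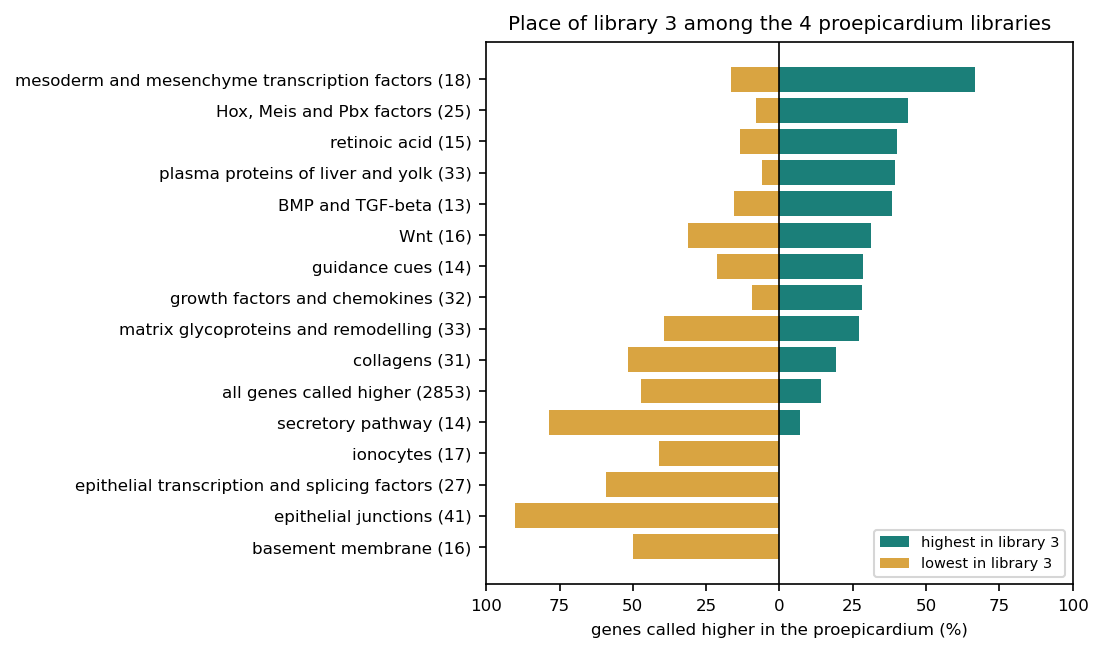
Share of the genes called higher in the proepicardium that had their highest (right) or lowest (left) CPM in proepicardium library 3, in percent, for the 15 lists with at least 13 such genes and for all 2853 such genes, with the number of genes in brackets. Mesoderm and mesenchyme factors (66.7%) lie at the top of the plot, and junction, epithelial factor, ionocyte and basement membrane genes have none highest in library 3.

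Lists for cell division, cilia and the cytosolic ribosome had few called genes. Of 71 tested cell cycle genes 7 were higher in the proepicardium against 1 in the heart tube, which is below the shares over all genes. The first count was 0 without proepicardium libraries 3 and 4 together, 1 without heart tube library 1 or proepicardium library 4, 3 without heart tube library 3 or pericardium library 1 and 17 without proepicardium libraries 1 and 2 together, and the second 2 without proepicardium library 1, proepicardium libraries 1 and 2 together or proepicardium libraries 3 and 4 together. Of the 7, 6 were genes of the G1 to S phases. MCM6 (ENSDARG00000057683), part of the replication helicase, was at 46.8, 62.3, 98.6 and 87.7 CPM in proepicardium libraries and 18.5, 34.3 and 31.4 in heart tube libraries (log2 difference 1.40 ± 0.35, adjusted p = 0.0113) and was not called under 2 of 20 alternatives, without proepicardium libraries 3 and 4 together and in the test against a 2-fold change (adjusted p 0.0662 to 0.169). CCND2 (ENSDARG00000051748), a cyclin that starts the cycle, was the gene higher in the heart tube, at 36.8, 19.2, 48.7 and 31.1 CPM in proepicardium libraries and 88.8, 172 and 149.6 in heart tube libraries (log2 difference -2.01 ± 0.36, adjusted p = 0.00158). Of 79 proteins of the cytosolic ribosome edgeR called 0, 1 was higher at an unadjusted p under 0.05, DESeq2 and limma-voom called 0, and the median difference was 0.07. Without proepicardium libraries 1 and 2, 7 of them were called higher in the proepicardium. Of 38 tested cilia genes 3 were higher in the proepicardium against 2 in the heart tube, with the first count 1 without heart tube library 1, proepicardium library 2 or proepicardium libraries 1 and 2 together and the second 1 without heart tube library 2, heart tube library 3 or proepicardium libraries 1 and 2 together and 4 without proepicardium library 4.

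Gene pairs taken as copies by their names alone were compared, and the origin of the copies was not examined. Of 381 tested pairs named as copies a and b, both copies were called in the same direction in 52 and in opposite directions in 12, of which 4 had both calls in the test against 2-fold. For 137 pairs 1 copy was called. In 913 pairs the tested gene IDs shared 1 symbol in capitals. Both were called in the same direction in 97 of these and in opposite directions in 45. COX7A2, PDK2, CAVIN1, DHRS3, IRX1 and ATP1B1 above were among the latter. The shares called over all genes tested were 16.8% on the proepicardium side and 12.7% on the heart tube side. How often pairs of unrelated genes would have opposite calls was not computed. The counts of opposite pairs therefore cannot show an excess among copies. cd9a was at 3.04, 3.56, 3.803 and 3.09 CPM in proepicardium libraries and 551, 461 and 776 in heart tube libraries (log2 difference -7.46 ± 0.34, adjusted p = 1.06e-06). cd9b, which like it encodes a membrane tetraspanin, was at 892, 529.9, 261 and 513 CPM in proepicardium libraries and 47.6, 0.691 and 4.24 in heart tube libraries (log2 difference 4.97 ± 1.26, adjusted p = 0.016). The copies were separated in opposite directions, and heart tube library 1, which held more epidermal markers than the other heart tube libraries, also held the most cd9b. cd9b was not called under 5 of 20 alternatives, without pericardium library 1, without pericardium library 2, without proepicardium libraries 1 and 2 together, without proepicardium libraries 3 and 4 together and with no filter (adjusted p 0.0519 to 0.128). syne2a, which encodes a protein that ties nuclei to the cytoskeleton, was at 8.51, 19.398, 9.63 and 10.0 CPM in proepicardium libraries and 1.27, 3.04 and 2.04 in heart tube libraries (log2 difference 2.49 ± 0.46, adjusted p = 0.00207). syne2b was at 13.9, 13.5, 13.5 and 9.05 CPM in proepicardium libraries and 29.0, 41.2 and 23.5 in heart tube libraries (log2 difference -1.32 ± 0.30, adjusted p = 0.00611). syne2b was not called under 1 of 20 alternatives, in the test against a 2-fold change (adjusted p 0.185). arhgap12a, a regulator of small GTPases, was at 22.2, 38.4, 8.77 and 25.3 CPM in proepicardium libraries and 3.37, 2.56 and 1.87 in heart tube libraries (log2 difference 3.17 ± 0.49, adjusted p = 0.000677). arhgap12b was at 7.604, 3.56, 13.4 and 3.64 CPM in proepicardium libraries and 30.7, 27.8 and 21.4 in heart tube libraries (log2 difference -1.91 ± 0.47, adjusted p = 0.0099). arhgap12b was not called under 2 of 20 alternatives, without proepicardium libraries 1 and 2 together and in the test against a 2-fold change (adjusted p 0.0594 to 0.0687). The other named pairs were pttg1ipa and pttg1ipb, and afap1l1a and afap1l1b. In each the copy named a was higher in the proepicardium and the copy named b in the heart tube (log2 difference 6.54 ± 0.86, adjusted p = 0.000286 for pttg1ipa). Of these, pttg1ipb was not called under 6 of 20 alternatives, without heart tube library 1, without heart tube library 3, without proepicardium library 1, without proepicardium library 4, without proepicardium libraries 1 and 2 together and in the test against a 2-fold change (adjusted p 0.0548 to 0.603). afap1l1a was not called under 3 of 20 alternatives, without heart tube library 3, without proepicardium libraries 3 and 4 together and in the test against a 2-fold change (adjusted p 0.0548 to 0.133), and afap1l1b under 4 of 20 alternatives, without heart tube library 2, without proepicardium library 1, without proepicardium libraries 1 and 2 together and in the test against a 2-fold change (adjusted p 0.0522 to 0.258). Reads of similar copies may have been assigned to either copy, so these opposite calls are uncertain in that respect.

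The genes with the smallest p-values included members of these groups. In the heart tube direction they were cd9a, atp2a2a, mylk2, LDHA, nppal, CAMK2A, si:dkey-164f24.2, pln1, nppa and nppb, and mylk2, a muscle myosin light chain kinase, was at 1.35, 1.16, 1.35 and 1.66 CPM in proepicardium libraries and 149, 108 and 100.3 in heart tube libraries (log2 difference -6.43 ± 0.38, adjusted p = 5.83e-06). In the proepicardium direction they were ponzr5, si:ch211-153b23.4, cldn7b, vgll4l, si:ch1073-406l10.2, zgc:100868, tlcd1, foxi1, cldn1 and pck2. ponzr5 was at 285, 433, 231 and 157 CPM in proepicardium libraries and 0.718, 0.691 and 1.30 in heart tube libraries (log2 difference 8.26 ± 0.54, adjusted p = 7.06e-06), with 358 and 336 CPM in the pericardium. vgll4l, related to cofactors of TEAD factors, was at 97.9, 78.0, 53.5 and 41.5 CPM in proepicardium libraries and 0.608, 0.622 and 1.22 in heart tube libraries (log2 difference 6.38 ± 0.49, adjusted p = 1.21e-05), with 121 and 95.3 CPM in the pericardium. tlcd1 was at 30.4, 20.2, 20.2 and 15.3 CPM in proepicardium libraries and 0, 0 and 0 in heart tube libraries, at least 105-fold higher in the proepicardium by 3 counts per library. In all of these genes every proepicardium library exceeded every heart tube library. The enzyme pck2, which makes phosphoenolpyruvate in mitochondria, was at 33.5, 34.4, 23.9 and 33.5 CPM in proepicardium libraries and 1.44, 0.691 and 0.652 in heart tube libraries (log2 difference 5.04 ± 0.41, adjusted p = 1.54e-05), with 30.6 and 45.4 CPM in the pericardium.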

How the data were processed

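Counts of reads per gene were used as the authors deposited them, as whole numbers without normalization. Per the submitters' processing notes the tools were CASAVA 1.8, fastp, STAR, featureCounts and DESeq2, with the build GRCz11 (danRer11). The cDNA was amplified from lysed tissue with an ultra-low-input kit, per the labels, and whether counting used strand is not given in the sources used here, so overlapping genes and near-identical copies can share reads. The 16 rows of fluorescent and other constructs were left out of library sizes and tests. Symbols came from a table of gene names, which held 29201 of the 32520 gene IDs. Symbols in capitals can stand for several zebrafish copies, and the ID is given where more than 1 copy was present. The deposited normalized table was not used.

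Genes were filtered with filterByExpr (minimum count 10, minimum total 15), scaled by TMM and fitted with edgeR 4.0.16 (glmQLFit with robust estimation, glmQLFTest) in R 4.3.3. All 9 libraries entered with tissue as the only term, so the pericardium shared in the estimate of spread, and the common biological coefficient of variation was 0.528. The test against 2-fold was glmTreat. Alternatives were DESeq2 1.42.0, limma-voom 3.58.1, other size factors and filters, and leaving out libraries.

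The members and gene lists were chosen with earlier results of these data known. Genes were named by a rule: in each direction the 10 with the smallest p, and for each list and direction the 3 called genes with the largest difference, where the groups did not overlap and the higher tissue averaged 10 CPM or more, and 5 pairs of copies called in opposite directions. For genes named by list, the lack of overlap was therefore a condition of being named. The other genes described (such as ALDH1A2, ATP5F1B, UQCRC1, NPR3, npr2, RYR2, kcnh6a, hcn2b, HOXB8, HOXC6, HOXD10, hoxa13b, STRA6, rbp5, foxf2a, twist1a, ZEB1, CXCL12, cxcl12b, CXCR4, PDGFA, PDGFRA, ERBB4, LEF1, COL1A2, COL6A3, apoc1, apoa2, PDK4, MYOD1 and second copies of named genes) were chosen after their values were seen.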

Additional observations from a re-analysis of the deposited data

Results flagged for a closer look

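Among 207 sets of 4 proepicardium values examined, 19 had 1 library far from the other 3, by the gap to the nearest value as a share of the range, using Dixon's 95% critical value. Chance gives about 1 in 20 such sets. Library 3 stood apart for pck2 (gap share 0.9152), SLC8A1 (ENSDARG00000013422, 0.9659), EGFL7 (0.9797), PTN (0.9305) and CRABP1 (0.8337), and for the share of counts of the muscle scaffold list (0.905). It was the lowest library for pck2 and the highest for the others. Library 1 stood apart for ndufa4b (0.8691), POPDC2 (0.8515), FH (ENSDARG00000075132, 0.8374) and cldnf (0.8976), and for the shares of guidance cues (0.9044) and of the secretory pathway (0.8872). Library 2 stood apart for hadhaa (0.8584), syne2a (0.859) and col17a1a (0.897). Library 4 stood apart for HOXD4 (0.8692), NTN1 (ENSDARG00000022531, 0.9081), syne2b (0.9248) and RRM2 (ENSDARG00000078069, 0.9008).

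The table also held rows for constructs that no comparison used. The row of an enhanced green fluorescent protein with added ends held 5, 0, 6 and 1 counts in proepicardium libraries 1 to 4 and 0 in every other library, so that its highest count was 6. The dsRed row held 68, 36, 595 and 332 counts in proepicardium libraries, 209, 221 and 181 in those of the heart tube, with 73 and 35 in pericardium libraries. Its highest count, 595, was in proepicardium library 3, and it did not follow the mCherry row.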

How the results depend on the processing

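The counts between proepicardium and heart tube were 2853 higher and 2154 lower in the proepicardium. They moved by over 1.5 times in the test against 2-fold (1838 and 1177) and, for higher genes, with a mean count of at least 50 (1894), which tests fewer genes. Leaving out 1 library gave 2170 to 2808 higher and 1704 to 2076 lower. DESeq2 called 3558 and 2460 and limma-voom 2803 and 2325. Neither count reversed. Of 168 genes named by the rule, 133 kept their call under every alternative that gave a value, and none reversed direction in any. The rule picked them for a small p or a large difference without overlap in these same libraries. Their stability was thus partly set by that choice and says little about other called genes. Same-numbered deviations of proepicardium and heart tube correlated at 0.0373, 0.0246 and 0.0598, and differently numbered ones at -0.0945 to 0.0477. With so few libraries these values cannot show whether equal numbers mean a shared collection. With the replicate number as a block 2402 and 1701 genes were called, and 8 of the 168 named genes were not. The 133 genes include that fit among the alternatives, while the counts of alternatives given beside single genes leave it out. With no filter on low counts 17 rather than 27 epithelial factors were called higher. Depth limits genes near 3 counts per library. The promoter comparison was not run.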
